A study of Mus musculus with 12 samples.

Results

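The genes described here are 51 genes of the cell division cycle, 24 that act in DNA replication and the G1/S transition and 27 that act in G2 and mitosis. They were measured in RAW 264.7 cells, a mouse macrophage line, given extracellular vesicles (EVs) from cultured endothelial cells. The gene names were listed by their role in the cycle, and a gene was kept where the estimated read counts of its transcripts, summed to the gene, reached 10 in at least 3 of the 12 libraries. All 51 listed genes passed, among 13923 genes that passed of 35944 in the deposited tables.

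RAW 264.7 cells were incubated for 48 h with 3 µg/ml of EV protein from MS-1 cells, a mouse endothelial line. The EVs had been electroporated with 1 of 4 synthetic miRNAs. EVs loaded with a control premiR, which is the nematode miRNA cel-miR-67 according to the methods of the study, are called ctrl-EVs. EVs loaded with a mimic (miR-EVs) are called by its name, so that miR-142-5p-EVs carried the mimic of miR-142-5p, miR-183-5p-EVs that of miR-183-5p and miR-222-3p-EVs that of miR-222-3p. Each group held 3 libraries of polyA-selected RNA, and the titles number them 1, 2 and 3. No library came from cells without EVs, so all values are relative to EVs that carry the control miRNA. The labels do not say that the 3 libraries of a group came from separate cultures, and p-values therefore measure only the spread between these libraries, which may be technical. What the numbers stand for is not given in the labels. The 4 libraries with a number, 1 of each treatment, deviated together from their group means, so values with the number as a block in the model are given beside those without it.

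In S phase, the MCM helicase that was loaded onto origins during G1 is activated by CDC45 and the GINS complex, and the polymerases copy the DNA with the help of the sliding clamp PCNA while ribonucleotide reductase and thymidylate synthase supply deoxynucleotides. Transcription of these genes is driven largely by the E2F factors, which the retinoblastoma proteins hold in check in G1. Genes of G2 and mitosis, among them cyclin B, the Aurora and Polo-like kinases, the kinesins and the spindle checkpoint proteins, are transcribed later in the cycle, and their promoters often hold a CHR element and CCAAT boxes bound by the DREAM, B-Myb, FOXM1 and NF-Y factors. RAW 264.7 is a transformed line that divides in culture, so both sets of transcripts are found in an unsynchronised population.

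The mimics delivered were named for the following mature miRNAs, printed from RefSeq (GRCm38.p6) with the seed, bases 2 to 8, in capitals, because the seed is what a target site is matched to. The 3 seeds differ from each other.
mmu-miR-142a-5p, chr11:87756867-87756887, plus strand: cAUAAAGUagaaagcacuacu
mmu-miR-183-5p, chr6:30169711-30169732, minus strand: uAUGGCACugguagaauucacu
mmu-miR-222-3p, chrX:19146901-19146923, minus strand: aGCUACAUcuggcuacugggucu

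A match of 7 bases to a seed was looked for in the 3′ untranslated region of the most expressed transcript of each gene (GENCODE annotation of GRCm38). Of the 50 members with such a region, 5 held a miR-142-5p seed match, 3 a miR-222-3p seed match and 0 a miR-183-5p seed match. For miR-142-5p these were 3 of 23 replication genes (13.04%) and 2 of 27 mitosis genes (7.41%), beside 13.9% of 11387 tested genes. For miR-222-3p they were 0 of 23 and 3 of 27 (11.1%), beside 9.27%, and for miR-183-5p the share over the tested genes was 9.09%. The sites of the members follow with the match in capitals, first the 5 for miR-142-5p and then the 3 for miR-222-3p.
Mcm2, chr6:88883727-88883751, minus strand: aggtgacagACTTTATcaaaactat
E2f8, chr7:48866693-48866717, minus strand: tgcaaagtaACTTTATtaaagttta
Ccne2, chr4:11203942-11203966, plus strand: aagaaagtcACTTTATtgcacacta
Kif11, chr19:37421132-37421156, plus strand: tcttttaaaACTTTATtccttgtat
Ccnb1, chr13:100778671-100778695, minus strand: aatatggagACTTTATgttgctaat
Foxm1, chr6:128376086-128376110, plus strand: agtcttgttATGTAGCtcgggctag
Ccna2, chr3:36565742-36565766, minus strand: ctgttttcaATGTAGCagaactcat
Mki67, chr7:135690044-135690068, minus strand: agtgaaactATGTAGCaaagacatt

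Promoter windows of 300 bases, 250 before to 50 after a start site in RefSeq (GRCm38.p6), were found for 42 of the 51 genes, with 45 windows in all. They were searched on both strands for TTTNNCGC (E2F-like), TTTGAA (CHR) and CCAAT. E2F-like matches were in 10 of 22 windows of replication genes (45.5%) and 1 of 23 windows of mitosis genes (4.35%), beside 5.17% of all 32851 windows and 7.88% of the 13128 windows of tested genes. CHR matches showed the opposite split, with 4 of 22 replication windows (18.2%) and 17 of 23 mitosis windows (73.9%), beside 17.9% of all windows and 12.8% of those of tested genes. CCAAT was found in 16 of 22 (72.7%) and 19 of 23 (82.6%), beside 37.4% and 37.9%. Matches of different motifs overlapped in 1 of the 45 windows. The windows below are those of genes that the later comparisons turn on, Mcm6 being shown for its E2F-like matches and Cdk1 for holding all 3 motifs, with every match in capitals on the strand of the gene.
Mcm6 promoter, chr1:128359656-128359955, minus strand: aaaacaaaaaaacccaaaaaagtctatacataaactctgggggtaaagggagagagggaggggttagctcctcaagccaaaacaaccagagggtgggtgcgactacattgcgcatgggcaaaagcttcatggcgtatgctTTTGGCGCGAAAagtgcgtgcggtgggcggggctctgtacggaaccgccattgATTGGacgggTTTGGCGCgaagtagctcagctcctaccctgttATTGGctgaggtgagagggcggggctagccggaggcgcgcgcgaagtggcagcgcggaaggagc
Tyms promoter, chr5:30073576-30073875, minus strand: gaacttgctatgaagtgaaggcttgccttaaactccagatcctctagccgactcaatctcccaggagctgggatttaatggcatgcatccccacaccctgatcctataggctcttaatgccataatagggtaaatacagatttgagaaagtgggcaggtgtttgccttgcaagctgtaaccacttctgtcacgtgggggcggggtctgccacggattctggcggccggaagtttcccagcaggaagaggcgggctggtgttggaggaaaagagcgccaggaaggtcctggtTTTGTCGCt
E2f2 promoter, chr4:136172024-136172323, plus strand: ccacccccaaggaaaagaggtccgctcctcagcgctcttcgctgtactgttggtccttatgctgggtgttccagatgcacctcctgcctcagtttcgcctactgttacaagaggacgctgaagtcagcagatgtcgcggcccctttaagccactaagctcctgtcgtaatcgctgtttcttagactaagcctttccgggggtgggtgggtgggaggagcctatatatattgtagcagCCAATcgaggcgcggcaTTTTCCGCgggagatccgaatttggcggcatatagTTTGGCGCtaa
Kif11 promoter, chr19:37376132-37376431, plus strand: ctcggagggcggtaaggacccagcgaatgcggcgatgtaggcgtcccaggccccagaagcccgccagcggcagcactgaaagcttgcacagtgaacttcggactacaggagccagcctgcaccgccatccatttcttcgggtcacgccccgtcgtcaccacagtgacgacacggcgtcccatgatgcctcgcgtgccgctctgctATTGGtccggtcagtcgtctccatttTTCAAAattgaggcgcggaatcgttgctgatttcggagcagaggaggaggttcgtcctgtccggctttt
Cenpa promoter, chr5:30666636-30666935, plus strand: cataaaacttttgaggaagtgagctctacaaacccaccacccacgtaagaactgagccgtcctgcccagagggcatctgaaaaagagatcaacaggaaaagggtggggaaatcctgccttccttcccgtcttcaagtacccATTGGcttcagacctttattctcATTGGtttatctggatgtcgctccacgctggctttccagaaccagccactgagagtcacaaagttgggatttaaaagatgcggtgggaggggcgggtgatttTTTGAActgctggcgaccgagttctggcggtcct
Cdk1 promoter, chr10:69352863-69353162, minus strand: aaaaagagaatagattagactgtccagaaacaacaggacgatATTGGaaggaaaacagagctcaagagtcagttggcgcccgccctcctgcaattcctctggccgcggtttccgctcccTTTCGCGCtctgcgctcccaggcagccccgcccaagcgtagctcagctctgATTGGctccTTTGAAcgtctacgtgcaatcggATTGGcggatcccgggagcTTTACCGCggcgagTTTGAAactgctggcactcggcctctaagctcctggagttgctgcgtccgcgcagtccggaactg
The window of E2f2 is that of 1 of 2 start sites. Its other window, chr4:136180532-136180831, held 0 E2F-like, 1 CHR and 3 CCAAT matches. The match is a description of the letters only, and no binding was measured.

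Library totals ran from 16294611 to 22974853 estimated counts. The number 2 libraries had the 4 lowest totals, up to 18927524, and the highest shares of mitochondrial transcripts, 4.88% to 5.41% against 4.47% to 4.62% in number 1 and 3.48% to 3.92% in number 3. The library of ctrl-EVs replicate 3 stood apart by the shortest count-weighted mean transcript length, 2795 bases against 2916 to 3118 in the others. All 11 macrophage markers on a list of their own were measured, with a summed TPM (a share of all transcripts, corrected for transcript length) of 2163 to 3243 per library. Of 11 endothelial markers only 5 passed the filter, Cldn5 was at 0 in every library, and the summed TPM was 15.0 to 34.1. In bulk RNA, fewer cycling cells and less RNA of a gene per cycling cell cannot be told apart.

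Expression levels under ctrl-EVs can be compared between genes per length. On the TPM scale the replication genes ranged from 4.47 ± 1.85 (mean ± SD, n = 3) for E2f7, a repressor among the E2F factors, to 129.7 ± 44.8 for Pcna, with a median of 22.3 over the 24 genes. The mitosis genes ranged from 17.3 ± 8.50 for Kif11, the kinesin that separates the spindle poles, to 212 ± 27.4 for Ube2c, the ubiquitin-conjugating enzyme of the anaphase-promoting complex, with a median of 65.6 over the 27 genes. The median over all 13923 tested genes was 16.9.

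The first question was whether EVs that carry 1 of the 3 mimics changed these genes relative to ctrl-EVs. In a DESeq2 model of the 4 groups, 0 of 51 genes passed an adjusted p of 0.05 (Wald test, two-sided, Benjamini-Hochberg over all tested genes) with miR-142-5p-EVs, and the background over all genes was 0.00718%. The count was 0 of 51 with miR-183-5p-EVs (background 0%), was 0 of 51 with the EVs of miR-222-3p (0%) and was 0 of 51 with the 9 miR-EV libraries pooled as 1 group (0%). At an unadjusted p under 0.05 the DESeq2 counts were also 0 of 51 in each, and edgeR called 0 of 51 in each. The share of all tested genes is not given here for these counts. Whether the 51 genes differed from all genes in them therefore cannot be told. The 4 comparisons share the ctrl-EV libraries. None of the 51 genes had all 9 miR-EV libraries above or all below the 3 ctrl-EV libraries, where 0.172% and 0.129% of all genes did.

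With the title number as a block, the count stayed at 0 of 51 for miR-142-5p-EVs (background 0.0575%), for the EVs of miR-183-5p (0.417%) and for those of miR-222-3p (0.0359%), and an unadjusted p under 0.05 was reached by 1, 5 and 3 of the 51 genes, beside 816, 1407 and 910 of all 13923. For all miR-EVs against ctrl-EVs it was 1 of 51, with a background of 1.54%, and an unadjusted p under 0.05 was reached by 4 of 51, beside 1893 of all 13923. The gene was E2f2 (chr4:136172394-136196057, plus strand, GRCm38), an activating E2F factor, and it was the only one of the 51 that passed in any of these comparisons with the block. In edgeR, blocked fits gave 0 of 51 in all 4 comparisons, and the lowest adjusted p was that of E2f2 in all miR-EVs at 0.193. The share of all tested genes called in these edgeR fits is not given here.

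Normalized counts (estimated counts scaled to library size and transcript length) of E2f2 are given with ctrl-EVs first and then the mimics by rising miRNA number, the order used for every set of 4 values. They were 588, 922, 668 and 772 in number 1, 887, 1430.2, 1486 and 1300.1 in number 2 and 616, 645, 842 and 682 in number 3. Each of the 9 miR-EV libraries was above the ctrl-EV library of its own number, but in numbers 1 and 3 the miR-EV libraries lay between 645 and 922, where the ctrl-EV libraries ranged from 588 to 887. The log2 fold change with the block was 0.43 ± 0.12 (adjusted p = 0.0199), against 0.48 ± 0.30 (adjusted p = 0.9998) without it. For the single mimics the blocked values were 0.47 ± 0.15 (adjusted p = 0.361) with miR-142-5p, 0.47 ± 0.15 (adjusted p = 0.121) with miR-183-5p and 0.36 ± 0.15 (adjusted p = 0.601) with miR-222-3p.

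The call of E2f2 depended on single libraries and on the length offset, the term that corrects counts for the mean transcript length of a gene in each library. With the block, the adjusted p was 0.0587 without ctrl-EVs replicate 1, 0.196 without ctrl-EVs replicate 2, 0.0506 without miR-142-5p-EVs replicate 1 and 0.0569 without miR-183-5p-EVs replicate 3. Without the length offset the log2 fold change was 0.14 and the adjusted p 0.546, and without all number 2 libraries they were 0.32 and 0.171. Leaving out ctrl-EVs replicate 3, the library with the shortest count-weighted mean transcript length, raised the blocked count to 4 of 51 in all miR-EVs (E2f2, Ccnb2, Mybl2 and Tpx2, adjusted p 0.00606 to 0.0241), 4 of 51 with miR-183-5p-EVs (Mybl2, E2f2, Cenpf and Tpx2, 0.0183 to 0.0401) and 1 of 51 with miR-222-3p-EVs (Tpx2, 0.0463). That mean uses 1 fixed length per gene, so it reflects which genes the counts fell on. Leaving out ctrl-EVs replicate 1 gave a call to Kif23 in all miR-EVs, with a log2 fold change of 0.30 ± 0.07 and an adjusted p of 0.00539. The share of all tested genes called in these fits is not given here. Whether the 51 genes stood out in them therefore cannot be told.

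The members that did not pass lay close to 0. With the block, the median log2 fold change in all miR-EVs was -0.0040 over the replication genes and 0.091 over the mitosis genes, beside 0.00091 over all tested genes. Values above 0 were found for 12 of 24 replication genes and 25 of 27 mitosis genes, beside 6995 of 13923 genes, and no test of a list was made. Among the mitosis genes, Kif23, a kinesin of the central spindle, had 0.20 ± 0.073 (adjusted p = 0.127), Bub1b, a kinase of the spindle checkpoint, had 0.15 ± 0.076 (adjusted p = 0.299) and Plk1, the Polo-like kinase, had 0.13 ± 0.071 (adjusted p = 0.353). Plk1 counts were 1198, 1278, 1205 and 1386 in number 1, 805, 847, 967 and 840.1 in number 2 and 1149.6, 1237, 1303 and 1263 in number 3, so that, as for E2f2, each miR-EV library was above the ctrl-EV library of its number, by amounts within the spread between numbers.

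The same was seen for the single mimics, each with the block. With miR-142-5p-EVs the medians were 0.041 over the replication and 0.055 over the mitosis genes, and with miR-222-3p-EVs they were 0.023 and 0.093. With miR-183-5p-EVs they were -0.038 and 0.13, and the widest replication genes apart from E2f2 were E2f1, an activating E2F factor, at -0.31 ± 0.13 (adjusted p = 0.305) and Mcm3, a subunit of the MCM helicase, at -0.25 ± 0.092 (adjusted p = 0.212). Ccnb1, cyclin B1, had 0.26 ± 0.10 (adjusted p = 0.246) in the same comparison. On lists of other genes of the cycle, 0 of 50 replication genes, 0 of 57 mitosis genes and 0 of 34 regulators of G1 passed in any of the 4 comparisons, with or without the block (DESeq2). At an unadjusted p under 0.05 there were 0 on these lists in all miR-EVs without the block, where the share of all genes is not given here. With the block there were 8, 9 and 4, beside the 1893 of 13923 over all genes. Macrophage and endothelial markers also had 0 calls in these comparisons.

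**Figure D1:**
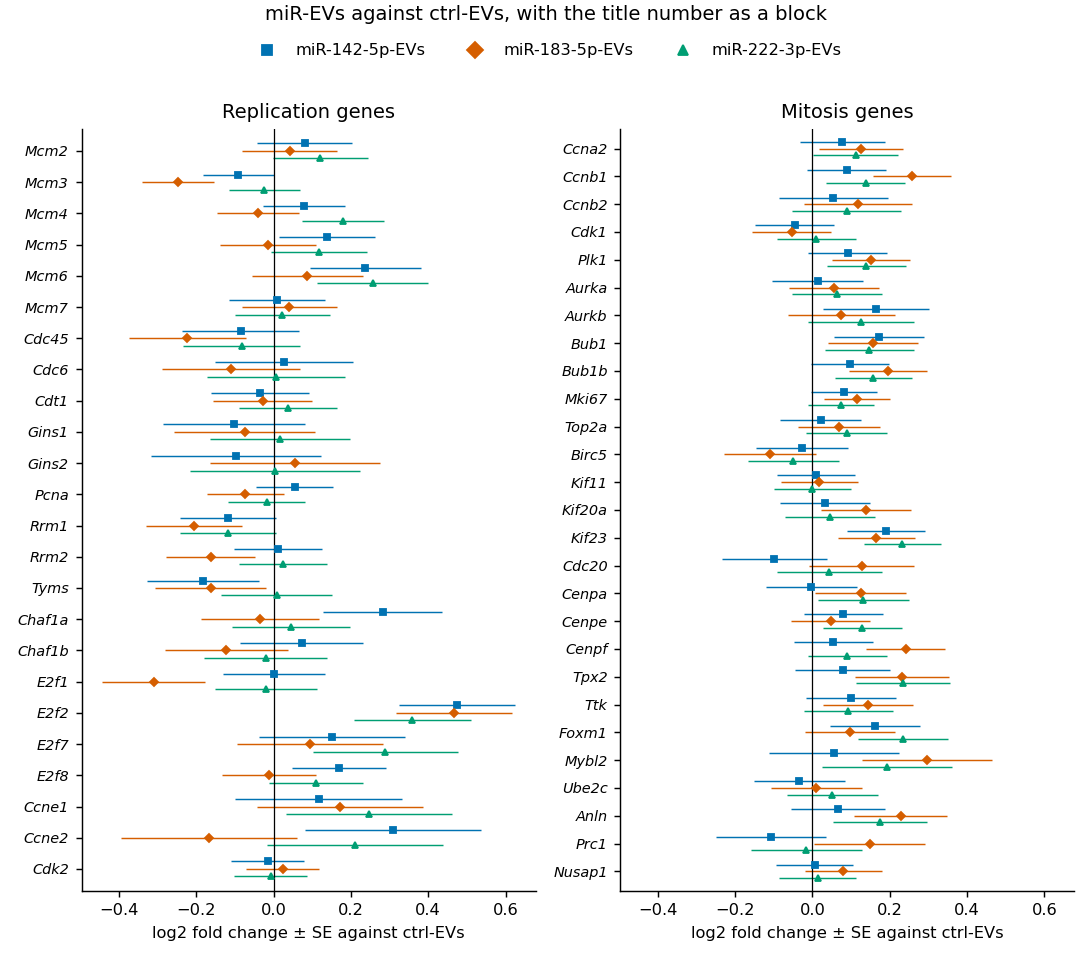
Log2 fold change of each of the 51 genes (rows) in the EVs of each mimic against ctrl-EVs, from DESeq2 with the title number as a block, replication genes and mitosis genes in separate panels, bars showing the standard error. Most values lie near 0, and E2f2 sits at 0.36 to 0.47 in the 3 comparisons, none of which passed an adjusted p of 0.05.

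Genes with a seed match for the mimic they were exposed to were not called either. With miR-142-5p-EVs and the block, Mcm2 had 0.080 ± 0.12 (adjusted p = 0.992), E2f8 0.17 ± 0.12 (adjusted p = 0.929), Ccne2 0.31 ± 0.23 (adjusted p = 0.934), Kif11 0.0084 ± 0.10 (adjusted p = 0.996) and Ccnb1 0.088 ± 0.10 (adjusted p = 0.976). With miR-222-3p-EVs, Foxm1, a transcription factor of the G2/M genes, had 0.24 ± 0.12 (adjusted p = 0.732), Ccna2 0.11 ± 0.11 (adjusted p = 0.944) and Mki67 0.074 ± 0.085 (adjusted p = 0.957). All 8 estimates were above 0, and none passed an adjusted p of 0.05.

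To follow replication and mitosis genes apart from each other, each gene's log2(normalized count + 1) was centred on its mean of all 12 libraries and averaged within a library over the 24 or the 27 genes, and no test was made on this score. The replication score was -0.024 ± 0.28 (SD, n = 3) in the ctrl-EV libraries, 0.038 ± 0.40 in those of miR-142-5p-EVs, -0.062 ± 0.26 in those of miR-183-5p-EVs and 0.048 ± 0.42 in those of miR-222-3p-EVs. The mitosis score was -0.070 ± 0.12, -0.017 ± 0.20, 0.052 ± 0.20 and 0.035 ± 0.18 in the same order. In the replication score the SD of every group was wider than any difference between group means, and in the mitosis score the widest difference, 0.12 between miR-183-5p-EVs and ctrl-EVs, was the size of the smallest SD.

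Paired by number, the replication score of miR-142-5p-EVs minus ctrl-EVs was 0.27, -0.017 and -0.064 in numbers 1, 2 and 3. With miR-183-5p-EVs it was -0.022, -0.0074 and -0.087. With miR-222-3p-EVs it was 0.29, -0.030 and -0.040. Number 1 with the mimics of miR-142-5p and of miR-222-3p gave the only 2 values above 0. The mitosis score differed by 0.13, 0.11 and -0.076 with miR-142-5p, by 0.031, 0.38 and -0.045 with miR-183-5p and by 0.12, 0.23 and -0.035 with the last mimic, above 0 in numbers 1 and 2 and below 0 in number 3 with every mimic.

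Across numbers the scores moved further. The replication score was 0.31 ± 0.17 (SD, n = 4) in number 1, -0.36 ± 0.013 in number 2 and 0.049 ± 0.037 in number 3, and the 4 number 2 libraries lay below the other 8. The mitosis score was 0.14 ± 0.065, 0.025 ± 0.16 and -0.16 ± 0.031, and here number 1 lay above number 3 with no overlap, whereas number 2 ran from -0.15 to 0.23. Number 2 minus numbers 1 and 3 was -0.54 for replication and 0.037 for mitosis. On the TPM scale, on which the median of all genes also moved by -0.17, these values were -0.73 and -0.18, so the mitosis value changed sign.

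**Figure D2:**
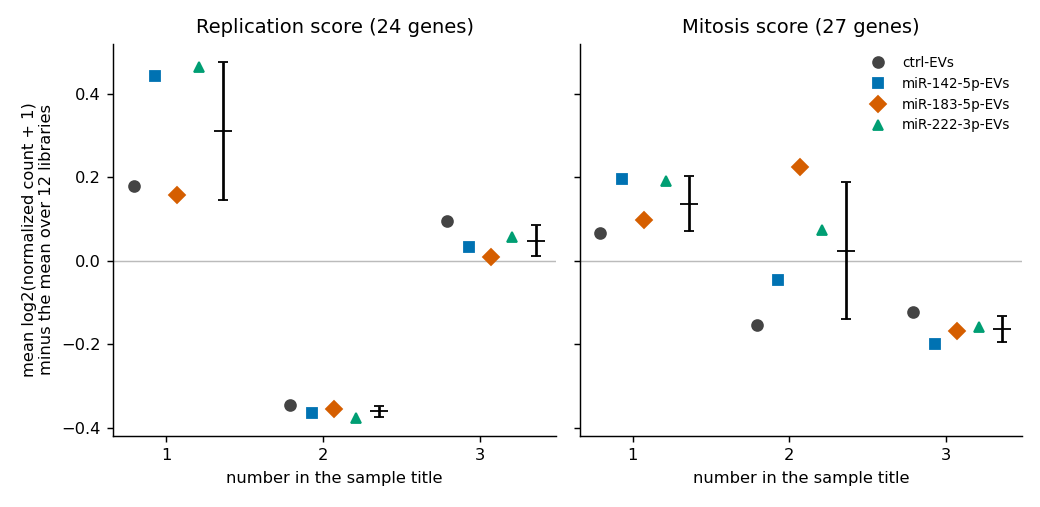
Replication score and mitosis score of each of the 12 libraries (mean log2 normalized count of the genes relative to the mean over 12 libraries) against the number in the sample title, 1 marker for each treatment. The replication score of the 4 number 2 libraries lies between -0.38 and -0.35, below all others, while the mitosis scores of number 2 overlap those of numbers 1 and 3. The mitosis difference of number 2 is below 0 on the TPM scale, where the median of all genes is at -0.17.

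The second question was how the genes differed between title numbers, with treatment kept as a term in the model so that each number has 4 libraries, 1 of each treatment. Libraries with a common number deviated together, so the 4 are not independent repeats of that number. The p-values here, and for number 1 against number 3, measure the spread within numbers and not the spread between numbers. In number 2, most of the 24 replication genes were lower, while the mitosis genes split in both directions. Of the 24 replication genes, 17 were lower (70.8%) and 3 higher (12.5%) in number 2 than in numbers 1 and 3, and over all genes 32.1% were lower and 32% higher (DESeq2, adjusted p under 0.05). Of the 27 mitosis genes, 8 were lower (29.6%) and 10 higher (37.0%), shares near those of all genes. Over the 51 genes, 38 passed, 25 lower and 13 higher. The median log2 fold change was -0.62 over the replication genes, 0.063 over the mitosis genes and 0.0065 over all genes. Without any overlap between the 4 number 2 libraries and the other 8, 14 replication and 7 mitosis genes were below (all genes 21.1%) and 2 replication and 4 mitosis genes were above (20.2%).

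**Figure D3:**
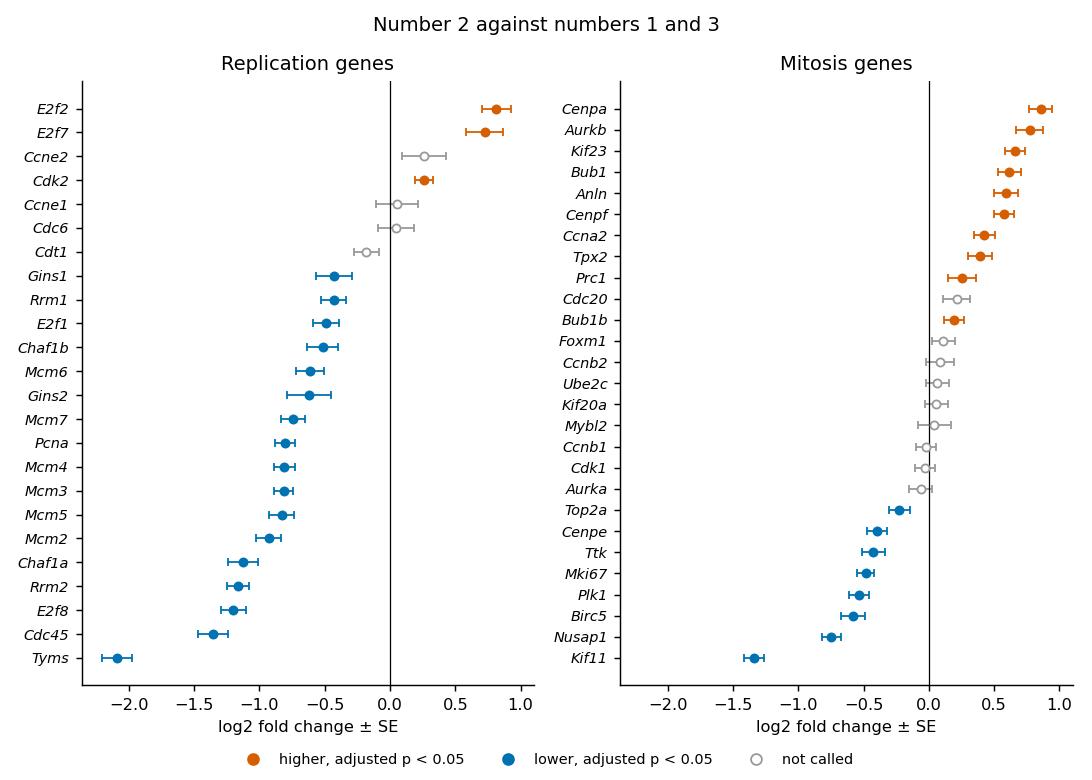
Log2 fold change ± SE of each replication gene (left) and mitosis gene (right) in the 4 number 2 libraries against the 8 libraries of numbers 1 and 3, coloured by direction where the DESeq2 adjusted p was under 0.05. Of 24 replication genes 17 are lower and 3 higher, and of 27 mitosis genes 8 are lower and 10 higher. Of these 10, Bub1b is at -0.031 on the TPM scale, where the median of all genes is at -0.17.

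All 6 subunits of the MCM helicase were lower in number 2. Mcm2 (chr6:88883474-88898780, minus strand) had normalized counts of 1898, 2359.7, 1998 and 2613 in number 1, 1045, 1114, 1105 and 1022 in number 2 and 1971, 1765, 1943 and 1861 in number 3. The number 2 libraries were all lower than the other 8, with 1071 ± 45.0 (SD, n = 4) against 2051 ± 286 (n = 8) and a log2 fold change of -0.93 ± 0.093 (adjusted p = 2.03e-22). The other subunits gave -0.82 for Mcm3, -0.81 for Mcm4, -0.83 for Mcm5, -0.61 for Mcm6 and -0.74 for Mcm7. Cdc6 and Cdt1, which help to load the helicase, did not pass, with 0.046 ± 0.14 (adjusted p = 0.776) for Cdc6 and -0.18 ± 0.10 (adjusted p = 0.0896) for Cdt1.

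Of the genes whose proteins activate the helicase, Cdc45, Gins1, Gins2 and Gins4 were lower in number 2 like the MCM genes. Gins3 was higher. Cdc45 (chr16:18780447-18811987, minus strand) held normalized counts of 743, 793, 706 and 919 in number 1, 355, 323, 259.6 and 237 in number 2 and 765, 661, 684 and 728 in number 3. All 4 number 2 libraries were below the rest, a 2.55-fold lower mean, with a log2 fold change of -1.36 ± 0.12 (adjusted p = 3.00e-29). The GINS subunits Gins1 and Gins2 had -0.43 ± 0.14 (adjusted p = 0.00441) and -0.62 ± 0.17 (adjusted p = 4.85e-04). At the fork, Pcna had 1586 ± 78.7 normalized counts in number 2 and 2799 ± 493 in the other libraries, a log2 fold change of -0.80 ± 0.075 (adjusted p = 1.35e-25). Chaf1a and Chaf1b, subunits of the chromatin assembly factor that places histones on new DNA, had -1.12 ± 0.12 (adjusted p = 5.52e-21) and -0.52 ± 0.12 (adjusted p = 5.68e-05).

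The widest change among the 51 genes was that of Tyms, thymidylate synthase (chr5:30058202-30073617, minus strand). Its normalized counts were 824, 835, 807 and 1043 in number 1, 181, 134, 159.9 and 172 in number 2 and 611, 537, 506 and 505 in number 3. The highest number 2 library held less than the lowest of the other 8, the mean was 4.38-fold lower, and the log2 fold change was -2.09 ± 0.11 (adjusted p = 1.69e-74). Rrm2, the regulated subunit of ribonucleotide reductase (chr12:24708241-24714146, plus strand), held 1809, 1759, 1316 and 1681 in number 1, 666, 740.1, 689.7 and 781 in number 2 and 1627, 1565, 1559 and 1602 in number 3, again with no overlap, and had -1.16 ± 0.088 (adjusted p = 9.82e-39). Rrm1, the large subunit, changed less, with -0.43 ± 0.094 (adjusted p = 1.12e-05).

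The E2F factors went in different directions. E2f1, an activator, and E2f8, a repressor, were lower in number 2, with -0.49 ± 0.10 (adjusted p = 4.16e-06) and -1.20 ± 0.095 (adjusted p = 4.30e-35). E2f2, an activator, was higher, with 1276 ± 270.5 normalized counts in number 2 against 717 ± 117 and a log2 fold change of 0.82 ± 0.11 (adjusted p = 2.38e-12), although ctrl-EVs replicate 2 at 887 was below miR-142-5p-EVs replicate 1 at 922. E2f7 was higher, with 0.73 ± 0.14 (adjusted p = 1.09e-06), a call that was lost without the length offset, where its value was 0.074 (adjusted p = 0.570). Among the kinases of the G1/S step, Cdk2 had 0.26 ± 0.071 (adjusted p = 5.83e-04), while its partners Ccne1 and Ccne2, the E cyclins, did not pass, with 0.054 ± 0.16 (adjusted p = 0.783) and 0.26 ± 0.17 (adjusted p = 0.174).

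**Figure D4:**
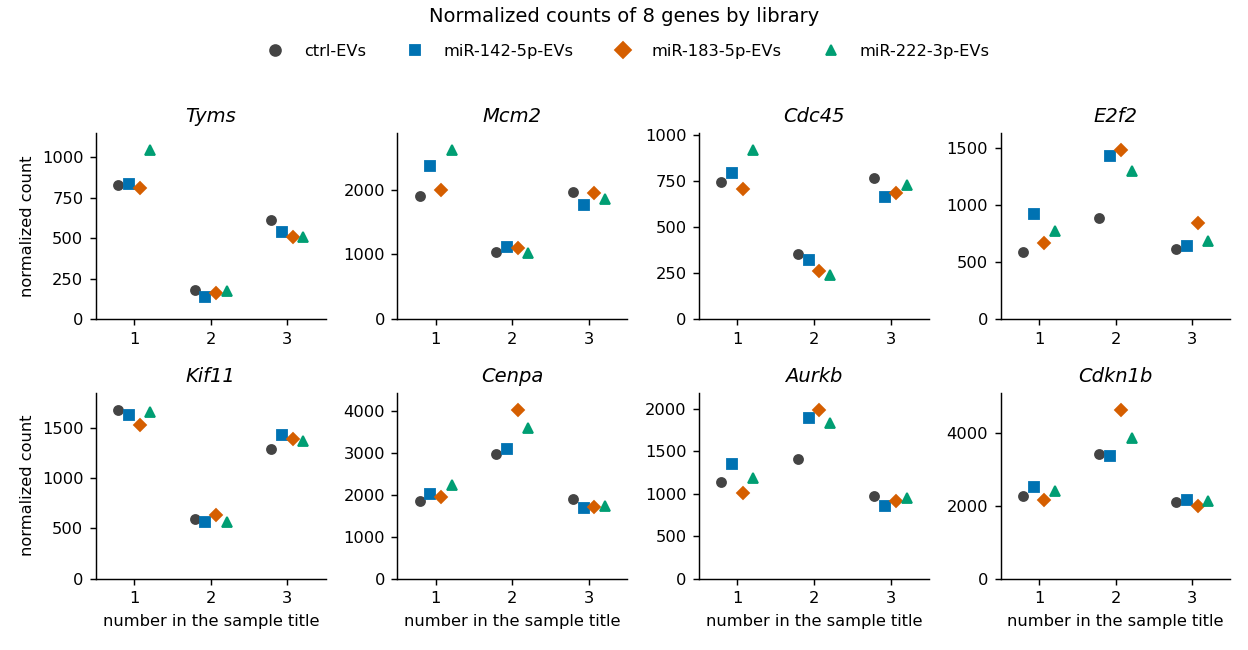
Normalized counts of Tyms, Mcm2, Cdc45, E2f2, Kif11, Cenpa, Aurkb and Cdkn1b in each of the 12 libraries against the number in the sample title, 1 marker for each treatment, each axis starting at 0. Tyms, Mcm2, Cdc45 and Kif11 are lower in all 4 number 2 libraries than in the other 8, and Cenpa, Aurkb and Cdkn1b are higher in all 4.

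Among the mitosis genes that were higher in number 2, Cenpa (chr5:30666777-30674830, plus strand), the histone H3 variant that marks centromeres, rose the most. It held normalized counts of 1864, 2023, 1962 and 2238 in number 1, 2971, 3099, 4036 and 3605 in number 2 and 1903, 1685, 1719 and 1727 in number 3. The number 2 libraries were all above the others, a 1.81-fold higher mean, with a log2 fold change of 0.86 ± 0.088 (adjusted p = 2.89e-21). Aurkb (chr11:69045647-69051664, plus strand), the kinase of the chromosomal passenger complex, held 1132, 1348, 1004 and 1183 in number 1, 1409, 1893, 1987 and 1826 in number 2 and 971, 859.8, 910.0 and 950.4 in number 3. Its number 2 libraries were also all above the rest, with 0.77 ± 0.10 (adjusted p = 4.10e-13).

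The spindle checkpoint and cytokinesis genes Bub1, Kif23 and Anln gave 0.62, 0.66 and 0.59. Cenpf, a kinetochore protein, gave 0.58, Ccna2, cyclin A2, 0.43, and Tpx2, the activator of Aurora A at the spindle, 0.39, all with an adjusted p under 0.05. The calls of Prc1 at 0.25 ± 0.11 (adjusted p = 0.0305) and Bub1b at 0.19 ± 0.075 (adjusted p = 0.0169) were the smallest among the rises. Bub1b was -0.031 on the TPM scale, which is 0.14 relative to the median of all genes on that scale. Bub1b lost its call without miR-183-5p-EVs replicate 1 (adjusted p = 0.0571), miR-183-5p-EVs replicate 2 (0.176) or miR-222-3p-EVs replicate 2 (0.0944). Prc1 lost its call without any 1 of 5 libraries, miR-183-5p-EVs replicates 1 and 2 (0.0850 and 0.238) and miR-222-3p-EVs replicates 1, 2 and 3 (0.0784, 0.228 and 0.0511). Without the length offset neither passed (0.18, adjusted p = 0.0672, for Prc1 and 0.10, adjusted p = 0.193, for Bub1b), and in edgeR Prc1 did not (adjusted p = 0.0557).

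The mitosis genes that were lower in number 2 were led by Kif11 (chr19:37376403-37421859, plus strand). Its normalized counts were 1680.1, 1624, 1531 and 1657 in number 1, 595, 559.9, 632 and 563 in number 2 and 1286, 1423, 1389 and 1366 in number 3. All 4 number 2 libraries were below the others, a 2.54-fold lower mean, with -1.34 ± 0.078 (adjusted p = 5.93e-64). Nusap1, a microtubule-binding protein of the spindle, had -0.75, Birc5 (survivin), a passenger complex subunit like Aurkb, -0.58 ± 0.090 (adjusted p = 5.00e-10), Plk1 -0.53 ± 0.077 (adjusted p = 2.54e-11) and Ttk, a checkpoint kinase, -0.43. Mki67, the source of the Ki-67 antigen, had -0.48 ± 0.064 (adjusted p = 2.74e-13), and Cenpe, a kinetochore kinesin, -0.40. Top2a, topoisomerase II, had -0.23 ± 0.079 (adjusted p = 0.00774) and was no longer called without ctrl-EVs replicate 2 (-0.14, adjusted p = 0.1004) or with a GC correction (-0.16, adjusted p = 0.0693).

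The core of the mitotic trigger was not among the calls. Cdk1, the mitotic kinase, had -0.031 ± 0.077 (adjusted p = 0.737), and its B cyclins had -0.024 ± 0.076 (adjusted p = 0.791) for Ccnb1 and 0.085 ± 0.11 (adjusted p = 0.487) for Ccnb2. The transcription factors Foxm1 and Mybl2 had 0.11 ± 0.088 (adjusted p = 0.273) and 0.040 ± 0.13 (adjusted p = 0.792). The exit genes Cdc20 and Ube2c had 0.21 ± 0.10 (adjusted p = 0.0569) and 0.063 ± 0.088 (adjusted p = 0.544), and Aurka and Kif20a did not pass either.

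The genes lower in number 2 and those higher overlapped in length and base content. The length of a gene's transcripts, weighted by their TPM, had a median of 2747 bases over the 25 lower genes and 2951 over the 13 higher. It was 1810 over the 13 that did not pass, beside 2256 over all tested genes. The median GC contents were 49.5%, 47.4%, 51.2% and 50.04% in the same order. E2F-like matches were in 5 of 23 promoter windows of lower genes, 3 of 12 of higher genes and 3 of 10 of the others, and CHR matches in 8 of 23, 8 of 12 and 5 of 10. Thus the Tyms, Kif11 and Cenpa promoters printed above, the first with an E2F-like match and the others each with a CHR and CCAAT, belong to genes that went down, down and up.

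Other genes of the cycle, from lists that leave out the 51, were counted in the same way. Of 50 other replication genes, 30 were lower (60%) and 7 higher (14%) in number 2, with a median of -0.48, beside 32.1% lower and 32% higher over all genes. Of 57 other mitosis genes, 17 were lower and 17 higher (29.8% each, near the shares of all genes), with a median of -0.016. Among the widest falls were those of Spc24, a kinetochore subunit, at -1.53 ± 0.11 (adjusted p = 7.31e-42) and Dscc1, a subunit of a clamp loader, at -1.46 ± 0.24 (adjusted p = 3.17e-09).

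Genes that restrain or govern G1 were mostly higher. Of 37 such regulators 34 passed the filter, which left out Myc, Cdkn2a and Cdkn2b. In number 2, 19 were higher (55.9%) and 5 lower (14.7%), beside 32% higher and 32.1% lower over all genes. Cdkn1b, the inhibitor p27, held normalized counts of 2274, 2529.7, 2161 and 2409 in number 1, 3439, 3383, 4645 and 3852 in number 2 and 2096, 2172, 2003 and 2145 in number 3. Its 4 number 2 libraries were all above the other 8, with 0.78 ± 0.091 (adjusted p = 9.50e-17). Cdkn1a, the inhibitor p21, had 0.84 ± 0.090 (adjusted p = 1.63e-19), Rb1, the retinoblastoma protein, 0.41 ± 0.071 (adjusted p = 3.42e-08) and Ccnd1, cyclin D1, 0.37 ± 0.078 (adjusted p = 5.73e-06). Cdk4, the kinase that cyclin D activates, was lower, with -0.71 ± 0.067 (adjusted p = 5.60e-25). The widest rises on these lists were Ccng2, a cyclin linked to cell cycle arrest, at 1.57 ± 0.10 (adjusted p = 1.59e-49), Cdc25a, a phosphatase that activates the cyclin-dependent kinases, at 1.26 ± 0.10 (adjusted p = 1.00e-34) and Orc4, a subunit of the origin recognition complex, at 1.08 ± 0.10 (adjusted p = 3.47e-26).

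Of the 11 macrophage markers 2 were higher (18.2%) and 5 lower (45.5%) in number 2, together about the share of all genes called in this comparison, and their summed TPM was 2163 to 2378 in number 2, 2323 to 2688 in number 1 and 3147 to 3243 in number 3. The endothelial markers had 0 higher and 3 lower of 5 tested, with a summed TPM of 15.0 to 17.8 in number 2, 25.6 to 29.7 in number 1 and 26.0 to 34.1 in number 3. The part of these markers, of depth and of the mitochondrial share in the values of the 51 genes was not tested.

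Numbers 1 and 3 differed in 1 direction over these genes. In number 1, 24 of 51 genes were higher and 0 lower than in number 3, where 12.9% of all genes were higher and 10.5% lower (DESeq2, adjusted p under 0.05). They were 9 of the 24 replication genes (37.5%) and 15 of the 27 mitosis genes (55.6%), with medians of 0.22 and 0.29 beside -0.0077 over all genes. All 4 number 1 libraries were above all 4 number 3 libraries for 8 replication and 17 mitosis genes (all genes 13.2%), and below them for 0 (all genes 12%).

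**Figure D5:**
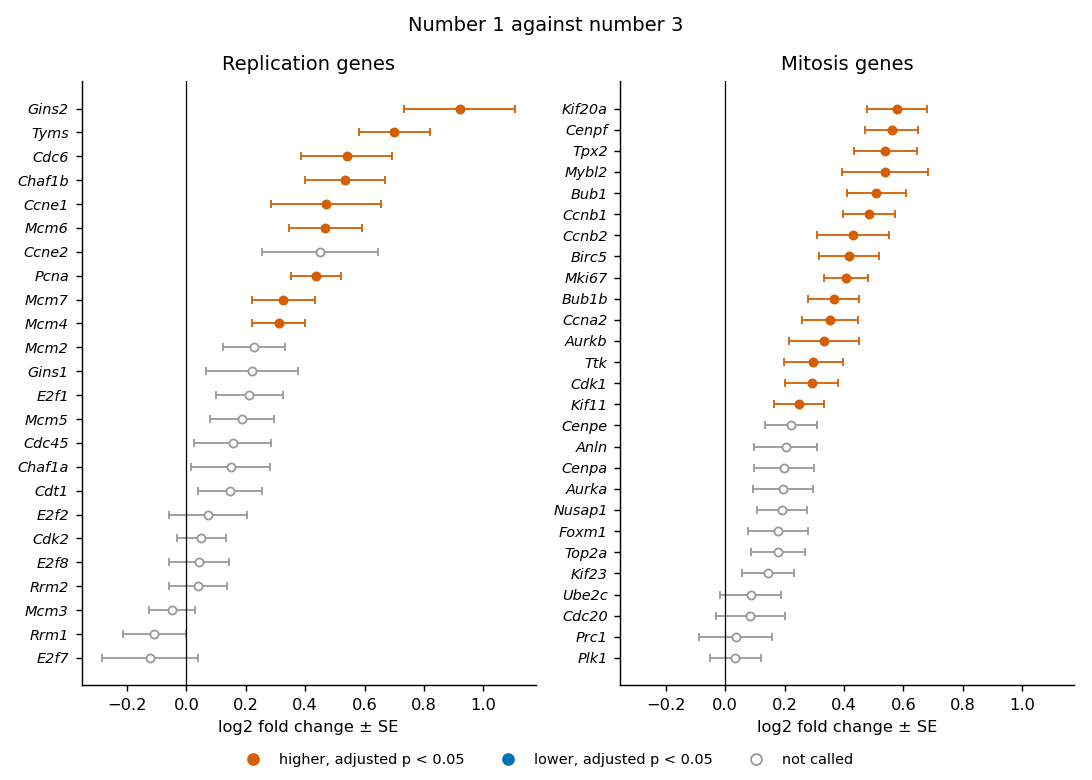
Log2 fold change ± SE of each replication gene (left) and mitosis gene (right) in the 4 number 1 libraries against the 4 number 3 libraries, coloured where the DESeq2 adjusted p was under 0.05. Of 24 replication genes 9 are higher and of 27 mitosis genes 15 are higher in number 1, and 0 are lower.

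The widest differences were those of Gins2, Tyms and Kif20a. Gins2 (chr8:120578633-120589304, minus strand) held 256, 312, 347 and 337 normalized counts in number 1 and 208, 141, 134 and 180.1 in number 3, without overlap, and had 0.92 ± 0.19 (adjusted p = 1.57e-05). Tyms had 0.70 ± 0.12 (adjusted p = 1.77e-07), from the counts given above. Kif20a, a kinesin of cytokinesis, held 2224, 2451, 2332 and 2367 in number 1 and 1656, 1562, 1518 and 1539 in number 3, and had 0.58 ± 0.10 (adjusted p = 2.73e-07).

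Of the other replication genes, Cdc6 had 0.54 ± 0.15 (adjusted p = 0.00364), Mcm6 0.47 ± 0.12 (adjusted p = 0.00152), Mcm7 0.33 ± 0.11 (adjusted p = 0.0131), Mcm4 0.31 ± 0.090 (adjusted p = 0.00429), Pcna 0.44 ± 0.085 (adjusted p = 5.88e-06), Chaf1b 0.53 ± 0.14 (adjusted p = 8.34e-04) and Ccne1 0.47 ± 0.19 (adjusted p = 0.0486). Ccne1 did not pass in edgeR (adjusted p = 0.0791) or in DESeq2 with a length correction (adjusted p = 0.0536). Mcm2 and Mcm5 did not pass, with 0.23 ± 0.11 (adjusted p = 0.104) and 0.19 ± 0.11 (adjusted p = 0.209), and neither did Rrm2 with 0.040 ± 0.10 (adjusted p = 0.827). E2f2 differed by 0.073 ± 0.13 (adjusted p = 0.751).

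The mitosis genes that were higher included genes without a call in number 2. Ccnb1 had 0.48 ± 0.087 (adjusted p = 7.65e-07), Mybl2 (B-Myb) 0.54 ± 0.15 (adjusted p = 0.00190) and Cdk1 0.29 ± 0.088 (adjusted p = 0.00701). Cenpf, Tpx2 and Bub1 had 0.56, 0.54 and 0.51, Mki67 had 0.41 and Birc5 0.42. Plk1, Cdc20 and Ube2c did not pass, with 0.034 ± 0.087 (adjusted p = 0.837), 0.084 ± 0.12 (adjusted p = 0.671) and 0.085 ± 0.10 (adjusted p = 0.612).

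The count of 24 rested in part on single libraries. It was 16 without miR-142-5p-EVs replicate 1 and 17 without miR-222-3p-EVs replicate 1 or without replicate 3 of that group. The share of all tested genes called in these fits is not given here, so whether it fell as well cannot be told. Mcm4, Mcm7, Cdc6, Ccne1, Cdk1, Aurkb, Kif11 and Ttk each lost the call in at least 1 such fit, with adjusted p-values of 0.0542 to 0.356 there. The other lists moved the same way, with 16 of 50 other replication genes higher and 2 lower, 14 of 57 other mitosis genes higher and 0 lower, and 7 of 34 G1 regulators higher and 2 lower. The shares were 32%, 24.6% and 20.6% higher, beside 12.9% of all genes, and 4%, 0% and 5.88% lower, beside 10.5%. The widest rises were Ccng2 at 0.94, Chtf18, a clamp loader subunit, at 0.79 and Kif18a, a mitotic kinesin, at 0.77, and the widest falls were the kinase gene Dyrk1a at -0.54, Donson, a replication fork gene, at -0.29 and E2f3, an activating E2F factor, at -0.27. Cdkn1b had 0.16 ± 0.11 (adjusted p = 0.313) and Cdkn1a 0.31 ± 0.10 (adjusted p = 0.0181).

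Counts of 8 of the genes, Cdc6, Mybl2, Rrm2, Tyms, Pcna, Mcm7, Mki67 and Ccnb1, are uncertain because near-identical copies, at least 95% alike over 200 bases or more, lie elsewhere in the annotation, although the copies held at most 0.218% of the counts of the gene. In the same way, 13 genes overlap a second tested gene, Cdc45 with Ufd1 and Mcm7 with Cops6 among them, and whether strand was used in counting is not given in the sources used here.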

How the data were processed

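Libraries were made from polyA RNA of RAW 264.7 cells with a stranded kit (TruSeq) and sequenced as paired reads. The authors mapped reads with Salmon to Ensembl transcripts and deposited an estimated count and a TPM value for each of 118783 transcripts per library. Whether mapping used strand is not given in the sources used here. Of the transcripts, 116710 were matched to a gene of the GENCODE annotation of GRCm38, and the unmatched ones held at most 0.642% of the counts. Estimated counts were summed to genes, rounded, and kept at 10 counts in at least 3 of 12 libraries (13923 genes), with an offset for mean transcript length as in tximport. Totals of 16294611 to 22974853 limit counting precision.

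DESeq2 1.42.0 in R 4.3.3 was run on all 12 libraries (~ group, and ~ group + number for comparisons of numbers), with adjusted p under 0.05 over all tested genes. edgeR 4.0.16 (quasi-likelihood test), other filters, offsets, length and GC corrections and left-out libraries were alternatives. Where a library is left out of a group, the fit shares 1 spread over all groups. A pseudocount of 1 was added for scores. The procedure was tested on simulated data. Numbers in the titles pair the samples: deviations of same-numbered libraries from their group means correlated at 0.409 to 0.797 (mean 0.608, 18 pairs, 13923 genes). The genes named were those chosen for their role in the cycle and, per comparison, the 3 widest rises and falls that passed the test at a mean normalized count of 50 or more, and on the other gene lists Cdkn1a, Cdkn1b, Ccnd1, Cdk4, Rb1, Myc and the 3 widest rises and falls. Other genes were named after their values were seen. A gene of the other lists that this rule would name is not reported here. The members and lists were chosen with earlier results of these data known. Cdk1 and Mcm6 promoters were chosen for their motifs.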

Additional observations from a re-analysis of the deposited data

Results flagged for a closer look

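Sets of 4 libraries with a common title number were compared for the named genes and the scores. In 3 of 96 such sets, 1 library lay far from the other 3 by Dixon's test, and chance alone gives about 1 set in 20. Cdk1 in number 3 was highest with ctrl-EVs, the gap being 0.910 of the range. Mcm5 in number 2 was highest with miR-142-5p-EVs, the gap being 0.932 of the range. Tyms in number 1 was highest with miR-222-3p-EVs, the gap being 0.866 of the range.

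The mitosis score of the miR-EVs relative to the ctrl-EVs of the same number had opposite signs between numbers. All 3 miR-EV libraries were above ctrl-EVs in number 1 and all 3 were below in number 3, a difference of 0.15 (log2). All 3 were also above ctrl-EVs in number 2, which differed from number 3 by 0.29. These differences were not tested.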

How the results depend on the processing

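The replicate block left the counts of called genes at 0 of 51 for each single mimic and gave 1 for all miR-EVs. With the block and a GC correction the counts were 1 with miR-183-5p-EVs and 1 with all miR-EVs, E2f2 in both, while with the block and a length correction E2f2 did not pass in all miR-EVs (0.40, adjusted p = 0.0577). Leaving out 1 library at a time with the replicate block, an alternative chosen after seeing the data, gave 0 to 4 calls for miR-183-5p-EVs, 0 to 1 for miR-222-3p-EVs and 0 to 4 for all miR-EVs, where 9 of 12 fits gave at least 1 call. These counts are given without the share of all tested genes called in the same fits. E2f2 was called in 10 of 18 fits with the block for all miR-EVs, with adjusted p-values of 0.00606 to 0.546. Without the block, leaving out 1 library gave 0 calls in every comparison of miR-EVs, also given without that share. The counts across numbers stayed within 1.5 times of 38 and 24, with 36 to 40 calls for number 2 and 16 to 27 for number 1 against number 3 when 1 library was left out, and 37 to 41 and 23 to 29 under the other settings. For these ranges too the share of all tested genes is not given here. On the TPM scale the score of number 2 minus numbers 1 and 3 moved to -0.73 for replication and to -0.18 for mitosis. The median of all tested genes was at -0.17 on that scale, so the mitosis value lay near it. The cause of these shifts was not tested. All other summaries stayed within 1.5 times of their count or within 1 SD, and over the fits of E2f2 and of the genes called across numbers, 54 values lost their call, 12, all of E2f2, newly passed and 0 changed sign. The 12 do not include Kif23, Ccnb2, Mybl2, Tpx2 and Cenpf, which newly passed in the blocked miR-EV fits without 1 library given above. On the TPM scale, which has no test, Bub1b changed sign to -0.031, but it was 0.14 relative to the median of all genes on that scale. Counting error is widest for the lowest counts, such as 125 normalized counts of Gins2 in miR-222-3p-EVs replicate 2.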

Other observations

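Within number 1, the libraries of miR-142-5p-EVs and of the miR-222-3p-EVs group were both above those of ctrl-EVs and miR-183-5p-EVs in 18 of 24 replication genes (75%) and 18 of 27 mitosis genes (66.7%), beside 20.9% of all genes. The same order was found in 1 and 0 genes in number 2 (all genes 14.4%) and in 4 and 5 genes in number 3 (all genes 15.3%). The reverse order, with both below, was found in 1 and 0 genes in number 1 (all genes 19.5%). It was found in 5 and 2 genes in number 2 (all genes 12.9%) and in 5 and 7 genes in number 3 (all genes 15.9%). The first order was noticed in the data. Both orders rest on 1 library of each treatment in each number and were not tested.

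The origin recognition complex, which marks the sites where the MCM helicase is loaded, did not move as a unit in number 2. Its subunits were named after their values were seen. Orc2, Orc5 and Orc6 were lower, with log2 fold changes of -0.85 ± 0.074, -0.53 ± 0.074 and -0.63 ± 0.089, and Orc1, Orc3 and Orc4 were higher, with 0.38 ± 0.15, 0.30 ± 0.073 and 1.08 ± 0.10, each with a DESeq2 adjusted p under 0.05.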
